A study of Glycine max with 10 samples.

Results

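Day 11 was compared with day 1 in the 5 of the 10 libraries that carry the susceptible label, cultivar LD12-15838R. These libraries were chosen by their labels alone. The 3 libraries of day 11 came from control plants without aphids, from plants with 15 aphids of biotype 1 and no inducer, and from plants that received 50 biotype 2 aphids as inducer and 15 biotype 1 aphids as response population. The 2 libraries of day 1 came from control plants and from plants with the same inducer and response population. Biotype 1 alone was sampled at day 11 only. The 5 libraries labelled resistant, cultivar LD12-15813Ra with the aphid resistance gene Rag1, hold the same 5 combinations of treatment and day. Each library was made from leaf RNA of 3 replicates pooled before library preparation, so each condition has 1 library.

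The soybean aphid (Aphis glycines) feeds on phloem sap. Biotype 1 is avirulent and biotype 2 is virulent on plants with Rag1. In induced susceptibility an earlier population of either biotype improves the plant for later aphids, and a virulent population that does so for avirulent aphids on a resistant plant is said to obviate the resistance. Leaves also age as a plant grows, and ageing leaves change in gene expression without any aphids. The age of the leaves sampled at each day was not examined. The control libraries compare the days in plants without aphids, and the inducer libraries compare them in plants with aphids at both days.

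The total of estimated counts lay between 23394131 and 25387621 in the 5 libraries, and between 40725 and 43327 genes had a count. Levels are given as CPM, counts per 1000000 counts of the library total, scaled with TMM factors over the 10 libraries. A limit of 3 counts corresponded to between 0.113 and 0.138 CPM in these 5 libraries, and it covers counting error only. The deposited table does not pair its identifiers with gene names, and 0 of the 37468 tested identifiers matched the reference gene table. Roles of genes are therefore not given, the leaf origin of the RNA was not checked with marker genes, and only 4 genes are named, 2 for each direction. Identifiers hold the chromosome and number the genes along it. In bulk leaf RNA, fewer cells of a type and less RNA per cell cannot be told apart.

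The labels need a caution before the results. Most genes that differed between the days under the susceptible label were nearer to their day 11 level in the resistant-labelled inducer library of day 1. The resistant-labelled control library of day 1 was nearer to that level for 25.3% of the higher and 8.80% of the lower genes only. The resistant-labelled libraries of day 1 thus differed from each other. In a stretch of chromosome 13, chosen after its values were seen, the control library was nearer to it for 62 of 63 higher and all 4 lower genes. The resistant-labelled libraries of day 11 were nearer to it for 0.508% to 1.27% of the higher and 1.93% to 27.5% of the lower genes. With edgeR, the 3 susceptible-labelled libraries of day 11 against the 2 resistant-labelled libraries of day 1 gave no call, 0 genes (0% of 37468). An unadjusted p under 0.05 was found for 819 genes, and 13 were called with DESeq2. The 3 resistant-labelled libraries of day 11 against the 2 susceptible-labelled libraries of day 1 likewise gave 0 (0%) with edgeR. There were 826 genes with an unadjusted p under 0.05, and 5 were called with DESeq2. The day comparison under the susceptible label had 9073 genes with an unadjusted p under 0.05 in edgeR. The first of these fits had a common biological coefficient of variation of 43.4% and the second one of 26.6%, against 31.7% in the day comparison. These fits share libraries with the day comparison, and a lack of calls does not show that the libraries are alike. Whether the cultivar labels hold at both days was not tested, and a difference between the days cannot be told apart here from one between cultivars. All libraries are named by their deposited labels.

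Between day 11 and day 1, edgeR called 2405 of the 37468 genes tested (6.42%) at an adjusted p under 0.05. Of these, 1575 (4.20% of those tested) were higher and 830 (2.22%) were lower at day 11. The spread behind the test comes from libraries of different treatments within a day (3 residual degrees of freedom). The p-values thus measure a spread that holds differences between treatments and between pools as well as technical ones. DESeq2 called 4826 genes, among them all 2405. The median log2 difference over all tested genes was -0.002, which the normalization keeps near 0.

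The number of calls between the days depended on single libraries and on the model. Without the control library of day 11 edgeR called 1294 genes, without that of biotype 1 580, without the control of day 1 735 and without the inducer library of day 1 999, of which 451 were higher and 548 lower, while without the inducer library of day 11 it called 3201. With treatment as a further term, which leaves 1 residual degree of freedom, edgeR made 0 calls, while 6555 genes had an unadjusted p under 0.05, and 1919 were called by DESeq2 with the same terms, an alternative chosen after the data were seen.

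All 4 named genes, which had the largest log2 differences of either direction among calls that averaged 5 CPM or more, lie on chromosome 13. Glyma.13G011600 had 949 CPM in the control, 1061 CPM in the biotype 1 and 765 CPM in the inducer library of day 11, against 0 CPM in both day 1 libraries. It was at least 5830-fold higher in each day 11 library than the limit of 3 counts in a day 1 library (edgeR adjusted p = 0.000432). The days are far apart, and the treatments of day 11 lie within a narrow range. In the resistant-labelled libraries the gene was at 0 CPM in all 3 of day 11 and at 1898 CPM (control) and 841 CPM (inducer) at day 1.

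Glyma.13G019700 had 688 CPM (control), 713 CPM (biotype 1) and 555 CPM (inducer) at day 11, against 0 CPM in both libraries of day 1. It was at least 4229-fold higher at day 11 by the same limit (edgeR adjusted p = 0.000432). The call was lost with the treatment term (adjusted p = 0.0902) and over all 10 libraries (adjusted p = 0.0604), where the fitted log2 differences were 16.83 and 16.97, against 16.90 as reported. The gene differed between the days in the same direction in the control and in the inducer libraries. In the resistant-labelled libraries it had 0 CPM (control), 2.77 CPM (biotype 1) and 0 CPM (inducer) at day 11, and 834 CPM (control) and 390 CPM (inducer) at day 1.

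Glyma.13G018100 went the other way, with 0.046 CPM (control), 0.26 CPM (biotype 1) and 0.36 CPM (inducer) at day 11, against 253 CPM (control) and 373 CPM (inducer) at day 1. These values rest on 16 counts in the 3 libraries of day 11 and 14761 in the 2 of day 1. The level of day 1 was 1360 times that of day 11, with an exact 95% interval of 839 to 2380 that covers counting error only (edgeR log2 difference -10.41 with a standard error of 0.62, adjusted p = 0.000432). The control library of day 11 held 1 count, which is under the limit of 3. The resistant-labelled libraries had between 351 and 454 CPM at day 11, and 0.74 CPM (control) and 0.36 CPM (inducer) at day 1.

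Glyma.13G014700 fell to 2.95 CPM (control), 3.51 CPM (biotype 1) and 3.17 CPM (inducer) at day 11, against 402 CPM (control) and 429 CPM (inducer) at day 1. The log2 difference was -7.02 with a standard error of 0.35 (edgeR adjusted p = 0.000355). Here the lower day was above the limit of 3 counts in every library, unlike in the other 3 genes. In the resistant-labelled libraries the levels were between 434 and 551 CPM at day 11, and 4.27 CPM (control) and 2.15 CPM (inducer) at day 1. Reads of near-identical copies can be divided between genes in the authors' quantification, and copies were not examined, so single genes are uncertain in that respect.

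**Figure D1:**
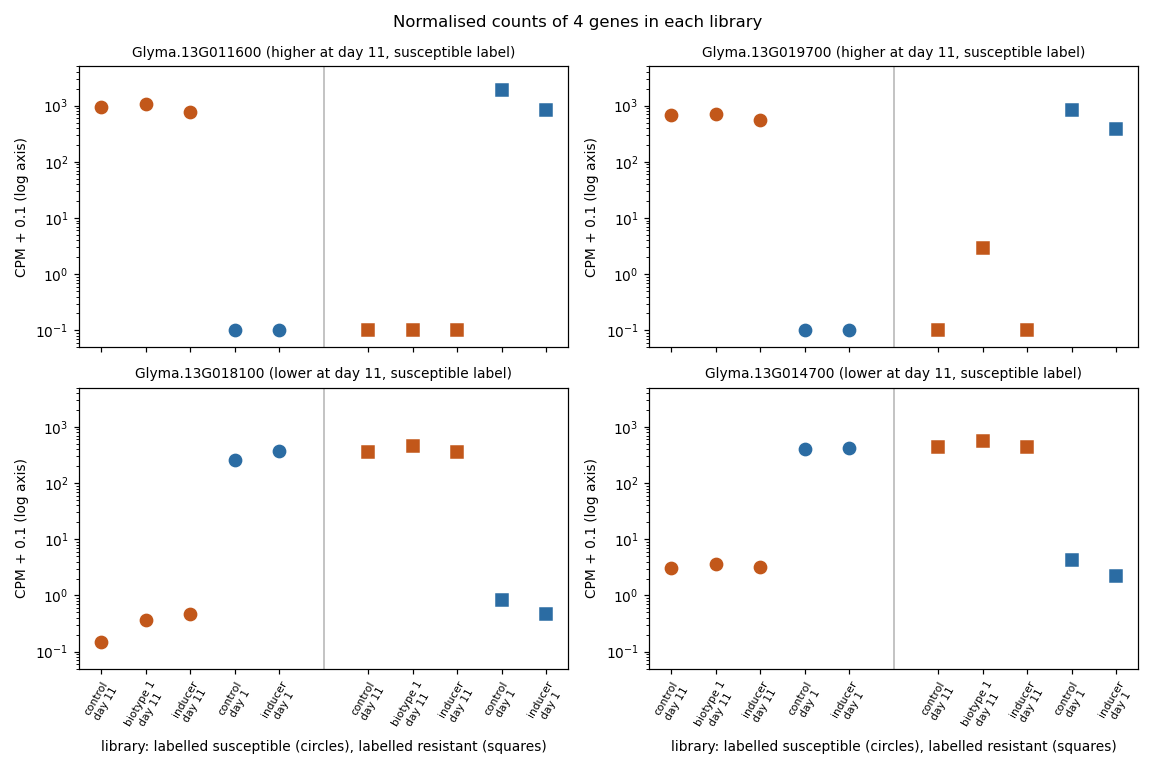
Level of the 4 named genes in each library, as TMM-scaled CPM plus 0.1 on a log axis, 1 point for each library, with day 11 in orange and day 1 in blue. On the left of each panel the 3 susceptible-labelled libraries of day 11 stand apart from the 2 of day 1, and on the right the resistant-labelled libraries show the reverse.

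The fitted differences were larger for the genes that rose than for those that fell. The order was the reverse in the control pair (medians of 1.74 and -1.93) and the same in the inducer pair (1.62 and -1.48). Genes of low level weigh on the fitted values. The median fitted log2 difference of the 1575 higher genes was 2.96, with quartiles of 1.87 and 5.28. In 285 of them both day 1 libraries were at 0 counts, and with these genes at their lower bound the median was 2.43. The median of the 830 lower genes was -2.04 (quartiles -2.83 and -1.51), and -2.03 with the 7 genes at 0 in all day 11 libraries at their bound.

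Together the 1575 higher genes took 7.70% (control), 9.0% (biotype 1) and 6.86% (inducer) of all counts at day 11, against 1.08% (control) and 0.904% (inducer) at day 1. The 830 lower genes took 0.710% (control), 0.924% (biotype 1) and 0.879% (inducer) at day 11, against 3.74% (control) and 2.95% (inducer) at day 1. As the genes were called on these libraries, these shares describe the calls and do not test them.

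The 2 directions also differed in level. When the genes were divided by mean CPM into 4 classes of 9367, the lowest class (up to 1.78 CPM) held the most higher calls: of its genes, 535 (5.71%) were called higher and 101 (1.08%) lower. In the highest class (from 20.2 CPM) 274 (2.93%) were higher and 222 (2.37%) lower. The excess of higher over lower calls was therefore largest among genes of low level. In the highest class the median fitted log2 difference was 1.99 for the higher and -1.84 for the lower genes.

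The controls and the inducer libraries form 2 pairs with no library in common, and each pair compares 1 library with 1 library and has no replicate check. In the control pair, 3898 genes (10.4%) were over 2-fold higher and 3775 (10.1%) over 2-fold lower at day 11, on the scale of log2 of CPM + 0.5. In the inducer pair 3181 (8.49%) were higher and 2678 (7.15%) lower. Both pairs were past 2-fold in the same direction for 2610 genes, 1587 higher (4.24%) and 1023 lower (2.73%). These are 34% of the genes past 2-fold in the control pair and 44.5% of those in the inducer pair. Opposite directions past 2-fold were found for 121 genes that were higher at day 11 in the control pair and lower in the inducer pair, and for 80 genes with the reverse. Across the 37468 genes the log2 differences of the pairs had the same sign for 66.2%, with a Pearson's r of 0.553 and a Spearman's rho of 0.458, given as descriptions since genes are not independent.

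Within the called genes the pairs can be read side by side. All 1575 higher genes were higher and all 830 lower genes lower at day 11 in both pairs, which the call itself nearly requires, since the calls use these libraries. Of the higher genes 1246 (79.1%) were past 2-fold in both pairs, and of the lower genes 622 (74.9%). The median log2 difference of the higher genes was 1.74 in the control pair and 1.62 in the inducer pair, and that of the lower genes was -1.93 in the control pair and -1.48 in the inducer pair. These pair values use a pseudocount of 0.5 CPM and are smaller than the fitted values for genes of low level.

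**Figure D2:**
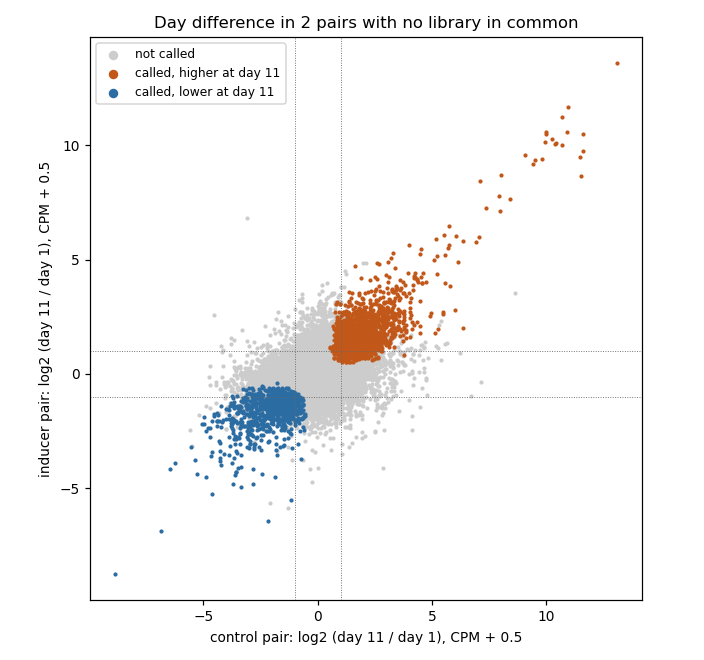
The log2 difference between day 11 and day 1 of each tested gene in the control pair (horizontal axis) and in the inducer pair (vertical axis), from CPM + 0.5, with dotted lines at 2-fold. Genes called higher (orange, 1575) and lower (blue, 830) fall on the same side in both pairs, and a group of genes lies past a log2 difference of 5 in both.

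More genes differed between libraries of different days than between libraries of the same day. In the 6 library pairs of different days, between 5409 and 8141 genes (14.4% to 21.7%) were past 2-fold in either direction. In the 4 library pairs of the same day, between 2628 and 3809 genes (7.01% to 10.2%) were. The ranges do not overlap, although the pairs share libraries. The lowest counts between the days, 5409 and 5859, were those of the inducer library of day 11. Every day 11 library was above every day 1 library for 8610 genes (23.0%) and below for 7572 (20.2%), far more genes than were called. With so few libraries such a separation also arises by chance, so these are not counts of genes that differ between the days.

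A smaller set of genes was detected on 1 day only. A gene was counted here when it had at least 1 CPM of the plain library total in every library of 1 day and at most 3 counts in every library of the other. There were 156 such genes at day 11 (0.416% of those tested) and 9 at day 1 (0.024%). All 156 and all 9 were called by edgeR, which the rule itself nearly requires, since it uses the libraries tested. The median level of the 156 genes was 2.75 CPM (control), 2.72 CPM (biotype 1) and 2.28 CPM (inducer) at day 11. Their summed level was between 2352 and 2946 CPM at day 11, against 3.57 CPM (control) and 3.72 CPM (inducer) at day 1. Most of them had a low level, and the 28 that lie in 1 stretch of chromosome 13 held the larger part of the sum, since the other 128 summed to between 689 and 828 CPM at day 11.

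The libraries that played no part in choosing these genes showed them as follows. Of the 156 genes detected at day 11 only, at least 1 CPM was found for 0 (control), 2 (biotype 1) and 0 (inducer) in the resistant-labelled libraries of day 11. At day 1 under the resistant label, 104 (66.7%) were found in the control and 152 (97.4%) in the inducer library. These genes were thus detected at day 11 under 1 label and at day 1 under the other, and the resistant-labelled control library of day 1 held fewer of them than the inducer library of that day.

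Called genes were found on all 20 chromosomes. The share of tested genes that was called lay between 4.96% on chromosome 3 and 7.49% on chromosome 6, apart from chromosome 13 with 9.29%. On chromosome 13, 168 of 2670 tested genes were higher (6.29%) and 80 were lower (3.0%). In windows of 50 tested genes in identifier order, the median over 734 windows was 3 called genes. The highest windows, 34 and 33 genes, follow each other on chromosome 13, and the next highest window held 9.

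These windows cover the genes ranked 51 to 150 on chromosome 13, and the stretch was chosen after its values were seen. Of its 100 genes 63 were higher, 4 were lower and 33 were not called. The 4 named genes lie in it, at ranks 60, 113, 106 and 85 in the order in which they were described. The higher genes of the stretch had a median fitted log2 difference of 9.47, against 2.84 for the 1512 higher genes elsewhere, a fitted value that for genes at 0 counts on a day is no bound. Their summed level was 37340 CPM (control), 34740 CPM (biotype 1) and 33450 CPM (inducer) at day 11, against 1450 CPM (control) and 1764 CPM (inducer) at day 1. The stretch thus held a large part of the summed level of all higher genes, which was between 72550 and 84940 CPM at day 11. Of the 156 genes detected at day 11 only, 28 (17.9%) lie in the stretch. Outside it, 2338 genes were called, and the share on the rest of chromosome 13 was 7.04%.

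**Figure D3:**
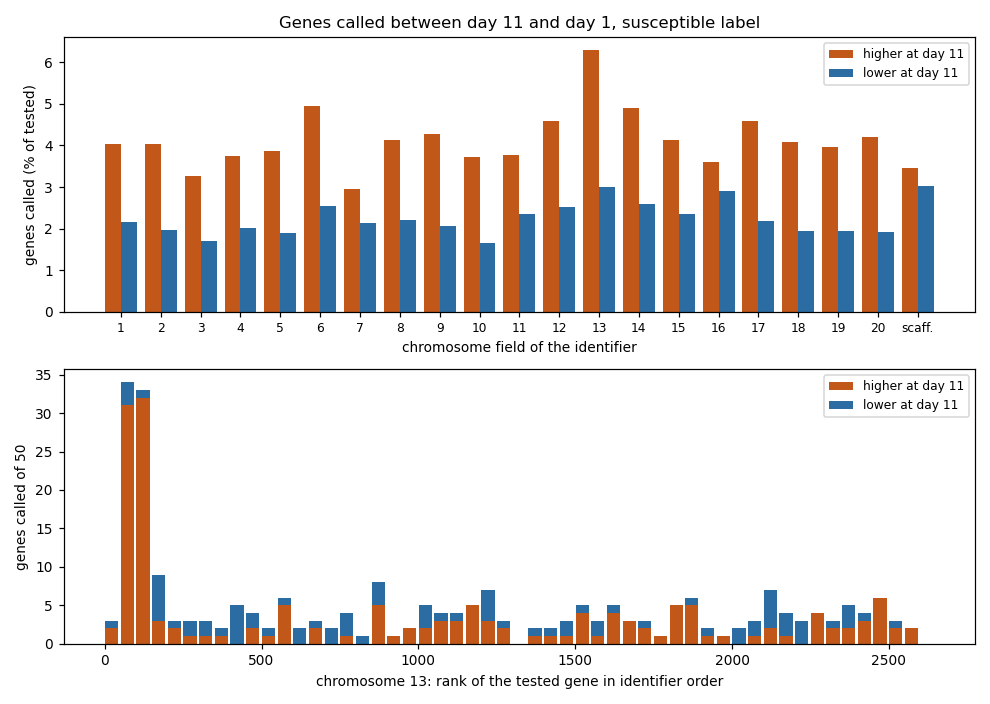
Upper panel, percentage of tested genes called higher (orange) and lower (blue) at day 11 on each chromosome and on unplaced scaffolds. Lower panel, called genes in windows of 50 tested genes along chromosome 13 in identifier order, where 2 neighbouring windows hold 34 and 33 called genes and the next highest holds 9.

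The day difference under the susceptible label was then set beside that under the resistant label, which uses none of the same libraries. The resistant-labelled libraries, day 11 against day 1, gave 32 called genes (0.0854%) with edgeR, 2 higher and 30 lower at day 11, and 749 with DESeq2. An unadjusted p under 0.05 was found for 3161 genes. All 32 were called under the susceptible label too, in the opposite direction. Of the 1575 genes that rose under the susceptible label, 1572 (99.8%) had a negative day difference under the resistant label, with a median log2 difference of -2.34 (quartiles -4.92 and -1.37). Of the 830 genes that fell, 527 (63.5%) had a positive difference under the resistant label and 303 (36.5%) a negative one, with a median of 0.33. Across all tested genes the sign was opposite for 70.2%, and Pearson's r between the day differences was -0.785, a correlation over genes, which are not independent.

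The count of opposite signs depended on which resistant-labelled libraries of day 1 were kept. Over both directions it was 2099 of 2405 (87.3%). Without the resistant-labelled control library of day 1 it was 2390 (99.4%), with a median log2 difference under the resistant label of -3.09 for the higher and 1.68 for the lower genes. Without the inducer library of day 1 it was 1168 (48.6%), of which 845 were among the higher genes (53.7%) and 323 among the lower genes (38.9%). The median was then -0.09 for the higher genes, and for the lower genes it turned to -0.28. These alternatives were chosen after the data were seen, and their shares over all tested genes were not computed.

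**Figure D4:**
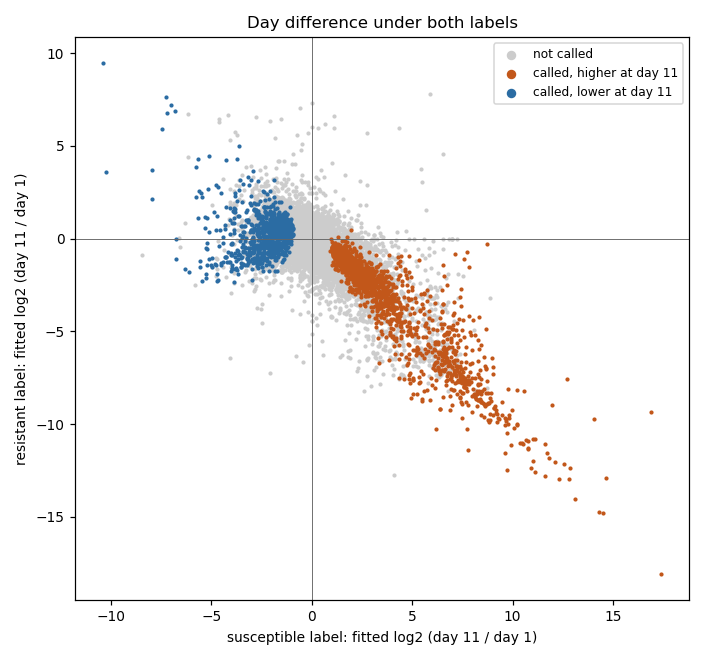
Fitted log2 difference between day 11 and day 1 for each tested gene under the susceptible label (horizontal axis) and under the resistant label (vertical axis), with genes called under the susceptible label in colour. Almost all orange genes (1572 of 1575) lie below 0 on the vertical axis, while the blue genes lie on both sides (527 above 0).

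Each resistant-labelled library was also placed, gene by gene, on the day 11 or the day 1 side of the midpoint between the susceptible-labelled days, on the scale of log2 of CPM + 0.5. The inducer library of day 1 lay on the day 11 side for 1555 (98.7%) of the higher and 784 (94.5%) of the lower genes. The control library of day 1 lay there for only 398 (25.3%) of the higher and 73 (8.80%) of the lower genes. Within the chromosome 13 stretch both libraries lay on the day 11 side for most of the 63 higher genes, 60 in the inducer and 62 in the control library. Their levels differed there, with a median of 7.59 CPM in the inducer and 18.7 CPM in the control library. The resistant-labelled libraries of day 11 lay on the day 11 side for between 8 (0.508%) and 20 (1.27%) of the higher genes. For the lower genes it was 16 (1.93%) in the control, 226 (27.2%) in the biotype 1 and 228 (27.5%) in the inducer library. The control library of day 1 had the lowest TMM factor of the 10 libraries, 0.772, and the inducer library of day 1 the highest, 1.15, and the part of these factors in the result was not tested.

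**Figure D5:**
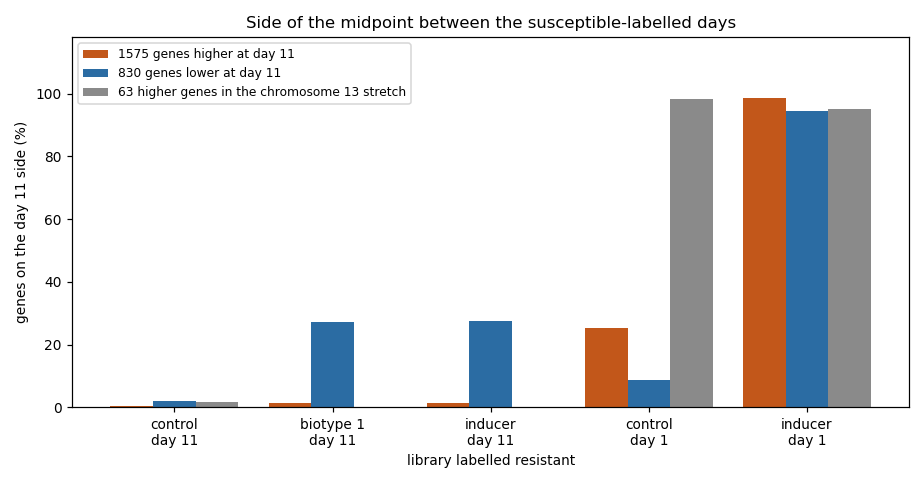
Percentage of the genes called under the susceptible label for which each resistant-labelled library lies nearer to the day 11 than to the day 1 mean, for the 1575 higher genes (orange), the 830 lower genes (blue) and the 63 higher genes of the chromosome 13 stretch (grey). The inducer library of day 1 is on the day 11 side for over 90% in each set, while the control library of day 1 is so only in the stretch.

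The test of the difference itself gave 2333 genes (6.23%) whose day difference differed between the labels in edgeR's interaction test over all 10 libraries. The term, the susceptible minus the resistant day difference, was positive for 1707 and negative for 626 of them. A positive term does not mean a higher level under the susceptible label. The interaction test called 1365 of the 2405 genes of the day comparison, 1107 (70.3%) of the higher and 258 (31.1%) of the lower genes. Both tests use the 5 susceptible-labelled libraries and are not independent. For all 1365 the interaction had the sign of the susceptible-labelled day difference. The count of 2333 was 9698 without the resistant-labelled control library of day 1, was 1657 without the susceptible-labelled inducer library of day 11, and lay between 398 and 900 without any 1 of the other 8 libraries, the lowest without the susceptible-labelled control library of day 1.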

How the data were processed

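Leaf RNA was sequenced in 10 libraries of pooled replicates. The deposited values are unscaled estimated counts per gene, which the authors obtained with Salmon 0.9.1 on primary transcripts (Wm82.a2.v1) after trimming in Trimmomatic 0.36. The options of Salmon were not given in the sources used here, so that its handling of near-identical copies is unknown. The estimated counts were rounded, and genes over 0.5 CPM in at least 1 of the 10 libraries were tested, which is the filter of the study.

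The day comparison used edgeR 4.0.16 in R 4.3.3 (TMM over the 5 libraries, quasi-likelihood test with robust estimation, day as the only term, Benjamini-Hochberg adjustment over all tested genes, threshold 0.05). The interaction test used the terms labelled cultivar, day and their product over all 10 libraries. DESeq2 1.42.0 was an alternative, and 7 genes with no adjusted value from it were left out of its count. Figures were drawn with matplotlib 3.10.9. Named genes were, for each direction, the 2 largest log2 differences among calls that averaged 5 CPM or more without overlap of the days. Members and lists were chosen with earlier results of these data known. The gene lists planned by annotation keyword were not run, since 0 identifiers matched the reference table (assembly Glycine_max_v4.0).

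The tests were tested on simulated data for 37468 genes with 200 changed 8-fold. The day test of edgeR recovered 100% with 5 false calls, and its test with a treatment term 99.0% with 8. Its interaction test recovered 91.0% with 8, and DESeq2's day test 99.0% with 15. The changed genes were drawn from well-counted genes only, all genes had the same dispersion, and no differences between treatments were simulated. These shares therefore do not carry over to genes of low level or to the spread of the real libraries. Alternatives covered normalization, the CPM filter, the tool, a treatment term, all 10 libraries, pseudocount, fold and each library left out.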

Additional observations from a re-analysis of the deposited data

Results flagged for a closer look

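The day difference differed between the susceptible and the resistant label for 2333 genes in edgeR's interaction test. The 4 named genes are among them. Their interaction terms, the log2 day difference under the susceptible minus that under the resistant label, were 35.51 for Glyma.13G011600 (edgeR adjusted p = 0.000176), 26.33 for Glyma.13G019700 (0.00787), -19.88 for Glyma.13G018100 (1.79e-05) and -14.23 for Glyma.13G014700 (8.54e-06). For the first 2 of these genes the size depends on how the model treats counts of 0 and is no bound.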

How the results depend on the processing

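The count of 2405 genes between the days was within 1.5 times the reported value with DESeq2's size factors (2386 genes), with library totals (2373), with a filter of 0.5 CPM in at least 2 of the 5 libraries (2342) and with any count (3086). DESeq2 gave 4826 genes (2966 higher, 1860 lower), the fit over all 10 libraries 201 (168 higher, 33 lower), and the treatment term 0 genes with edgeR (0 higher, 0 lower). With 1 library left out in turn the count lay between 580 and 3201 (411 to 2080 higher, 169 to 1121 lower), and higher genes made up 45.1% of the calls without the inducer library of day 1 and 83.6% in the fit over all 10 libraries, against 65.5% as reported. Past 4-fold in both pairs there were 510 genes (345 higher, 165 lower). The interaction count of 2333 was 5828 with DESeq2 and between 398 and 9698 with 1 library left out, the highest without the resistant-labelled control library of day 1. The causes were not tested. The 4 named genes kept their direction under all 12 alternatives of the day comparison. Each lost its call with the treatment term in edgeR (adjusted p between 0.077 and 0.0906), and Glyma.13G019700 also over all 10 libraries. The planned medians of gene lists were not run. With 1 library per condition, differences between pools of the same condition were not measured.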

Other observations

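Among the 3 susceptible-labelled libraries of day 11, that with biotype 1 alone was the highest for 676 (42.9%) of the 1575 genes that rose, the control for 580 (36.8%) and the inducer library for 319 (20.3%). Of the 830 genes that fell, the control was the lowest for 439 (52.9%), biotype 1 alone for 247 (29.8%) and the inducer library for 144 (17.3%). The inducer library was thus least often the one farthest from day 1 in both directions. These counts describe genes called on the same libraries, and the difference between the treatments was not tested. The order is not particular to the called genes. Over all tested genes, 14.4% and 15.6% were past 2-fold between the inducer library of day 11 and the day 1 libraries. For the control and biotype 1 libraries of day 11 these shares were 19.4% to 21.7%.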
